A study of Mus musculus with 2 samples.

Results

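The glycerolipid acyltransferases and lipins are the enzymes that build phosphatidate, diacylglycerol and triacylglycerol from glycerol-3-phosphate and fatty acyl-CoA. Here 10 of their genes were examined in mouse epidermis: Gpam, Agpat1, Agpat2, Agpat3, Agpat4, Agpat5, Lpin1, Lpin2, Dgat1 and Dgat2. They were found by gene symbol, gene identifier or accession, and they account for 12 of the 25697 probes and 10 of the 17871 genes on the array. Agpat5 was found by its accession under the older name D8Ertd319e. Agpat2 was chosen by its lower signal in the knockout on these same arrays, so its difference is a description and supports nothing further.

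Epidermis was lifted with dispase from the back skin of C57BL6 mice at postnatal day 5, and RNA from 3 mice was combined for each array. The control array, CON, came from littermates with the genotype VDR fl/fl CaSR fl/fl. The knockout array, DKO, came from mice with the same floxed alleles and Cre recombinase driven by the keratin 14 (K14) promoter. The vitamin D receptor (VDR) is a DNA-binding factor, the calcium-sensing receptor (CaSR) a G protein-coupled receptor of the cell surface, and the series addresses how the 2 act together in epidermal differentiation. Keratin 14 is made by basal keratinocytes and the outer root sheath, and the deletion passes to the cells that descend from them. The protocol text calls the knockout a VDR knockout, and the titles and genotypes, which name both receptors, were followed. Each group is 1 array, so the differences below have no replicates behind them and are given as descriptions, without tests.

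In this pathway a glycerol-3-phosphate acyltransferase adds an acyl chain to glycerol-3-phosphate and makes lysophosphatidate. An acylglycerol-phosphate acyltransferase (AGPAT) then adds another and makes phosphatidate, the branch point to the acidic phospholipids. Lipins remove the phosphate to give diacylglycerol, which becomes phosphatidylcholine and phosphatidylethanolamine or, through a diacylglycerol acyltransferase (DGAT), triacylglycerol. In skin these lipids feed membranes, the sebaceous gland and the epidermal permeability barrier.

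Signals were background-corrected, quantile normalized and expressed on the log2 scale, and each difference is DKO minus CON. A probe was called detected at a detection p-value under 0.01, which compares its signal with the array's negative controls. By their brightest probe all 10 genes were detected on at least 1 array and 9 on both. The exception, Lpin1, was detected on CON alone. A gene was counted as different at a fold of at least 2, and 1 of the 10 genes, Agpat2, passed on the lower side. Over all 8472 detected genes 2.44% passed in either direction, 1.05% on the higher and 1.39% on the lower side. Since Agpat2 was picked for this difference, nothing is read from that count. As a measure of spread within an array pair, the pooled SD among detected probes for 1 gene was 0.30 (log2, 2047 genes), and 6 of the 10 genes lay within that distance of 0. That SD does not measure variation between mice, pools or arrays.

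**Figure D1:**
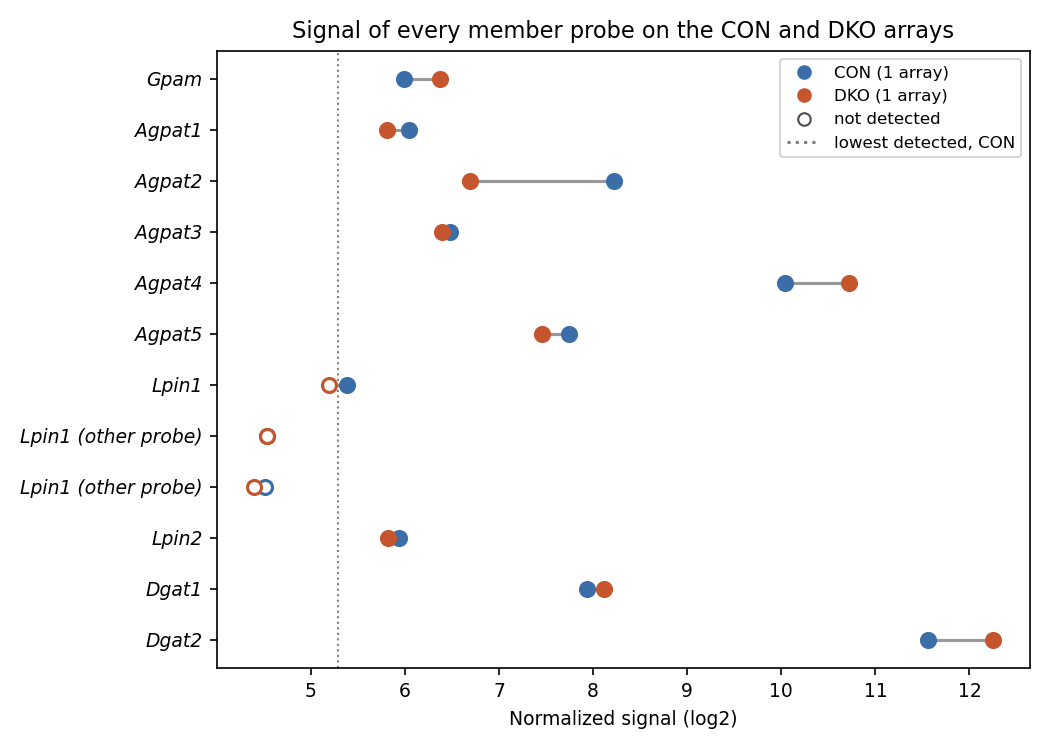
Normalized signal (log2, horizontal axis) of each of the 12 probes on the CON array (blue) and the DKO array (orange), 1 array per group, with open circles where the probe was not detected and a dotted line at the lowest signal detected on CON (5.29). Agpat2 has the widest gap between the arrays, from 8.23 on CON to 6.69 on DKO, and positions of different probes are not comparable as levels.

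As a check of the labels, Vdr had 3 probes, detected on CON and DKO alike, which differed by -0.12, -0.24 and -0.82, and the Casr probe was not detected on either array. The files do not place these probes inside or outside the deleted parts of the genes, so they check nothing. All 5 keratinocyte markers (Krt1, Krt5, Krt10, Krt14 and Lor) were detected on both arrays, with differences from -0.07 to 0.64. The pools also differed in Y-linked transcripts, named after their values were seen. Ddx3y read 6.89 on CON and 10.31 on DKO by its brightest probe, and its other probes were not detected on either array. Eif2s3y, not detected on CON, was at least 9.03-fold higher in DKO after background correction and 4.35-fold higher in the authors' deposited table. Their part in the results below was not tested.

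Agpat2 encodes an acylglycerol-phosphate acyltransferase of the endoplasmic reticulum, and its loss causes generalized lipodystrophy in humans and mice. Its probe had a raw signal of 430.3 on CON and 208.4 on DKO, and its detection p-value was listed at 0 on both arrays. After normalization it read 8.23 on CON and 6.69 on DKO, a log2 difference of -1.54 and a signal 2.90-fold lower in DKO. The lower signal is thus present in the raw values, where CON was 2.06 times DKO, and is larger once background is removed. Its raw DKO signal was under 1.5 times the lowest one detected on DKO, 151. The size of the fold therefore depends on how background is subtracted. In the authors' deposited table the signals were 519 and 259, a fold of 2.002, at the edge of the size rule. Without background correction the difference was -0.94 and did not pass. In order of log2 difference Agpat2 was 29th from the lowest of 8472 genes.

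Agpat4 acts at the same step and lay on the other side of 0. Its upstream sequence is shown with that of Agpat2 because the 2 genes are the AGPATs with the largest differences in either direction and one of the receptors removed is a DNA-binding factor. RefSeq promoter windows of build GRCm38.p6 were matched for 7 of the 10 genes, and the others were Agpat5, Dgat1 and Dgat2. Each sequence below is the 250 bases before the start of transcription, 5′ to 3′ on the gene's strand. The Agpat2 window is chr2:26604418-26604667 on the minus strand and the Agpat4 window chr17:12119034-12119283 on the plus strand. Capitals mark GC boxes (GGGCGG) and CCAAT boxes (CCAAT or its reverse complement).
Agpat2: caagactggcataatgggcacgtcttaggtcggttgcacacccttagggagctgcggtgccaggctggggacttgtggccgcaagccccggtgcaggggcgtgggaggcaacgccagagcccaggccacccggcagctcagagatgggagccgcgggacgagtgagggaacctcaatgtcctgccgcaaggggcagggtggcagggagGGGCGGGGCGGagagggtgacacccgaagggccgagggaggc
Agpat4: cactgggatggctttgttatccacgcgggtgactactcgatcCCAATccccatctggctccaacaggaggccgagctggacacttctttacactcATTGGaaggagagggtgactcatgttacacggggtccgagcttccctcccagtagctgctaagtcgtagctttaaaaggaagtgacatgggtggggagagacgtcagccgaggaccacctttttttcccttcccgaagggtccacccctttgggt

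The Agpat2 window was 69.2% G and C and held 2 overlapping GC boxes, which began 42 and 37 bases before the start. A GC box was present in 32.7% of the 32851 windows in the table, on either strand. The Agpat4 window was 55.2% G and C and held 2 CCAAT boxes, 208 and 155 bases before the start, and a CCAAT box was present in 33.8% of windows. The median window was 52.4% G and C. A direct repeat of the vitamin D response element type was found in 1.74% of all windows and in 0 of the 11 windows of the 7 genes. The nuclear receptor core element AGGTCA, found in 14.0% of all windows, was in a window each of Gpam, Agpat1 and Lpin1. The E-box CACGTG, found in 6.02% of all windows, was in a window of Lpin2, and TATAAA, found in 12.4%, was in 0 of the 11. These matches describe letters within 250 bases, and binding to them was not examined.

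Gpam encodes the glycerol-3-phosphate acyltransferase of the outer mitochondrial membrane, which opens the pathway. Its raw signal was 178.5 on CON and 189.6 on DKO, and its normalized signal 5.99 and 6.37, a difference of 0.38 (1.30-fold higher in DKO). The Gpam probe sat close to the lowest detected raw signals, 152.1 on CON and 151 on DKO. In all, 5 of the 10 genes (Gpam, Agpat1, Agpat3, Lpin1 and Lpin2) had raw signals under 1.5 times those values on both arrays, and a small raw change there becomes a larger log2 difference after background is subtracted. Without background correction the Gpam difference was 0.15.

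Of the 5 AGPAT genes 4 were lower in DKO and 1 was higher, where 4455 of all 8472 detected genes were lower. Agpat4, an AGPAT whose loss lowers some phospholipids of the mouse brain, read 1232.9 raw on CON and 1684.7 on DKO. Its normalized signal was 10.04 and 10.72, a difference of 0.68 (1.60-fold higher). Only 4.05% of detected genes had a difference as high or higher. Agpat5, an AGPAT of mitochondria, read 337.9 and 275.5 raw and differed by -0.28. Agpat1, which shares the endoplasmic reticulum and the reaction of Agpat2, read 181.2 and 164.3 raw and 6.05 and 5.81 after normalization, a difference of -0.24. Agpat3, an AGPAT with a preference for polyunsaturated chains, read 205.4 and 190.7 raw and 6.48 and 6.39 after normalization, a difference of -0.09. The Agpat1, Agpat3 and Agpat5 differences were all smaller than the spread between probes of a gene. Only Agpat2, which was picked for its difference, and Agpat4 exceeded it among the AGPATs, in opposite directions. Each of the 5 genes had 1 probe, so none has a second reading on the same array.

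Lipins are phosphatidate phosphatases that can also enter the nucleus and act on transcription. Lpin1 is the gene mutated in the fatty liver dystrophy mouse. Its brightest probe read 154.8 raw on CON and 146.1 on DKO, with detection p-values of 0.00376 and 0.0201. Its DKO signal was not well above background, and with that signal set to the lowest one detected on DKO the difference was 0.0, so no fold is given. The other 2 Lpin1 probes, listed under another transcript accession, were not detected on either array, with raw signals from 123.1 to 130.2. Lpin2, which is mutated in an inherited autoinflammatory bone disease of humans, read 175.7 and 164.7 raw and 5.93 and 5.82 after normalization, a difference of -0.11. The Lpin2 difference was smaller than the spread between probes of a gene. Lpin3, the remaining lipin and a member of the wider lists below, read 225.2 and 230.1 raw and differed by 0.23.

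Neither DGAT gene passed the size rule, and of the pair only Dgat2 exceeded the spread between probes. Dgat2, without which newborn mice lack triacylglycerol and have a defective skin barrier, read 3312.4 raw on CON and 4659.9 on DKO. Its normalized signal was 11.56 and 12.25, a difference of 0.69 (1.61-fold higher). Dgat1, which also esterifies retinol and is needed for normal sebaceous glands and hair in mice, read 370.1 and 371.6 raw. Its normalized signal was 7.93 and 8.12, a difference of 0.19 (1.14-fold higher). The raw DKO signal of Dgat1 was 1.004 times that of CON, so the difference appears after normalization. In the authors' deposited table the Dgat2 difference was 0.61 and the Dgat1 difference 0.13, and under median scaling they were 0.57 and 0.075. For Dgat2, 3.80% of detected genes had a difference as high or higher.

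**Figure D2:**
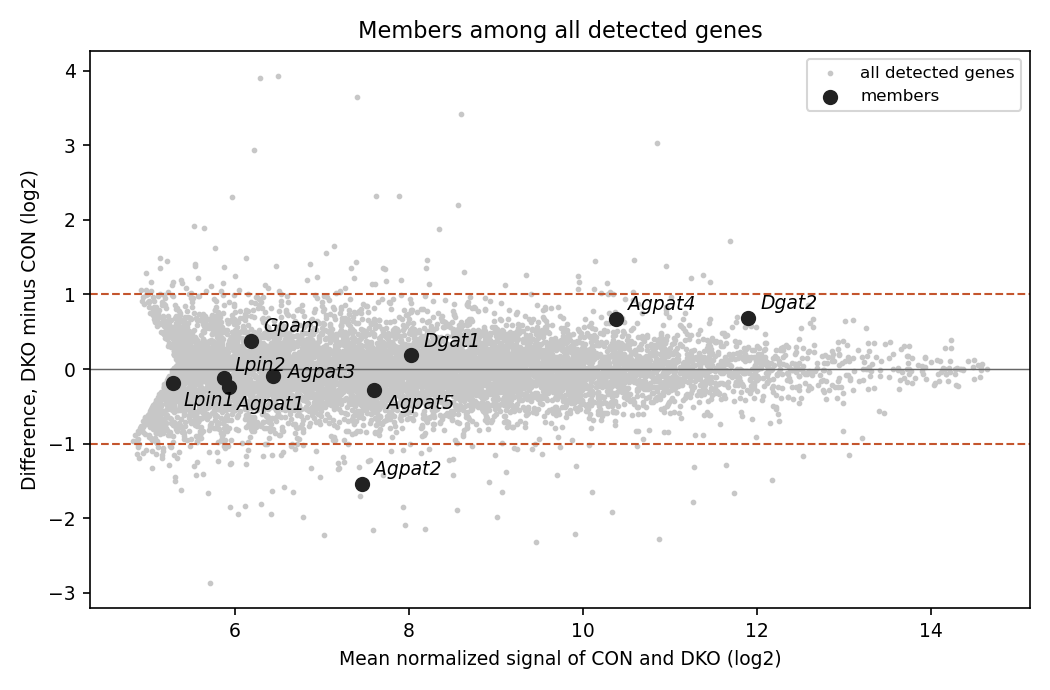
Difference between the arrays (DKO minus CON, log2, vertical axis) against mean normalized signal (log2, horizontal axis) for 8472 detected genes (grey) and the 10 genes described here (black, named), with dashed lines at 2-fold. Agpat2 at -1.54 is the only one of the 10 outside the lines, and Agpat4 at 0.68 and Dgat2 at 0.69 lie highest of the 10.

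Over the 10 genes 4 were higher and 6 lower in DKO, where 3992 of all 8472 detected genes were higher and 4455 lower. The median difference of the 10 was -0.10, or -0.09 without Agpat2, against -0.02 for all detected genes. With the dim value of Lpin1 set to its bound 4 were higher and 5 lower, and the median was -0.05. Each of the 10 kept the direction of its difference under median scaling, where 3015 of all 8472 detected genes were higher. Each also kept it without background correction and with an offset of 50. Those settings keep the order of probes on each array, so a sign could not change there. Directions were kept in the authors' deposited table too. Its split of all detected genes, 3993 higher and 4456 lower, was close to the main one, so it may not be a separate check.

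**Figure D3:**
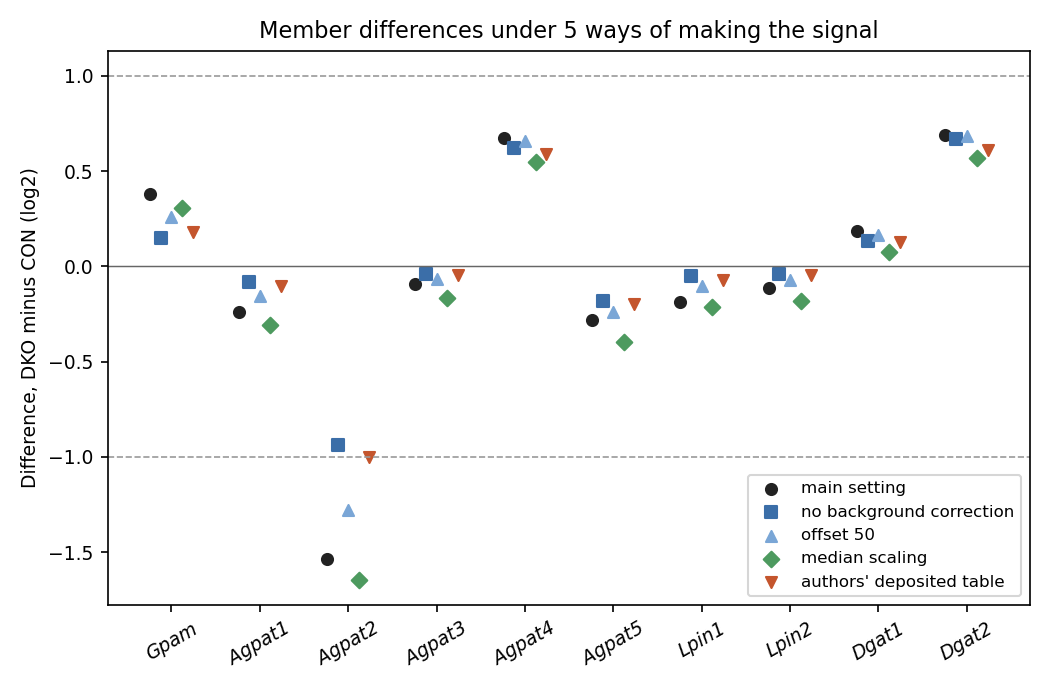
Difference of each of the 10 genes (DKO minus CON, log2, vertical axis) with the signal made in 5 ways, 1 array per group, and dashed lines at 2-fold. Agpat2 runs from -1.64 under median scaling to -0.94 without background correction, and each gene stays on the same side of 0 in the 5 settings.

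The wider pathway was read from 9 lists of other glycerolipid genes. Of 110 listed genes 100 were on the array and 70 were detected, and 0 of the 70 passed the size rule, where 2.44% of all detected genes did. Of the 70, 47 were higher in DKO (67.1%), where 47.1% of all detected genes were higher, and their median difference was 0.13. Under median scaling the median of all detected genes moved from -0.02 to -0.13, and 39 of the 70 (55.7%) were higher, against 35.6% of all genes.

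At the opening steps 5 of 8 listed genes were detected, with a median of 0.02, which was -0.06 under median scaling. Gnpat and Agps, peroxisomal enzymes of ether lipid synthesis, differed by 0.41 and -0.27, and Gpd1, which makes glycerol-3-phosphate in the cytosol, by 0.26. A list of other acyltransferases that remodel phospholipids had a median of 0.29 over 7 genes. It included Abhd5 (0.36), which is not an established enzyme of that kind. Mboat2, a lysophospholipid acyltransferase, differed by 0.56 by its brightest probe, and its 4 detected probes ranged from 0.46 to 0.80. Mboat7, which acts on lysophosphatidylinositol, differed by -0.54. Lpcat4, a further lysophospholipid acyltransferase, was at least 1.18-fold lower after background correction and not detected on DKO.

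Other phosphatidate phosphatases, Lpin3 and the PLPP family, had a median of 0.25 over 6 genes, 5 of them higher. Plpp5 differed by 0.52, Plpp1 by 0.36 with its other detected probe at 0.68, and Plpp6, which acts on isoprenoid diphosphates, by 0.27. Enzymes that attach phospholipid head groups had a median of 0.24 over 15 genes, with 13 higher, or 10 under median scaling. Among them Cept1, which makes phosphatidylcholine and phosphatidylethanolamine from diacylglycerol, differed by 0.67. Chka, the choline kinase that opens that branch, differed by 0.52. Pisd, which turns phosphatidylserine into phosphatidylethanolamine in mitochondria, was at least 1.15-fold higher after background correction and not detected on CON. Of the diacylglycerol kinases, which return diacylglycerol to phosphatidate, Dgkq and Dgka differed by 0.53 and 0.50 and Dgkz by -0.52, and only these 3 were detected. The other Dgkz probes differed by -0.48 and -0.07, and the other Dgka probe detected on both arrays by 0.53.

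Enzymes and carriers that supply acyl-CoA had a median of 0.08 over 11 genes. Acsl1, a long-chain acyl-CoA synthetase, read 8.62 on CON and 9.51 on DKO, a difference of 0.89, the largest in size among the 70 genes. Slc27a3, of the family of fatty acid transport proteins with acyl-CoA synthetase activity, differed by 0.82, and Acsl6, another acyl-CoA synthetase, by 0.79 by the only one of its 3 probes detected on both arrays. A broad list around triacylglycerol breakdown had a median of 0.21 over 11 genes, 8 of them higher. Not all encode triacylglycerol lipases: the higher ones included Daglb, a diacylglycerol lipase, Ddhd1, a phospholipase, and also Pnpla1 and G0s2. The count is therefore not one of triacylglycerol lipases. Mgll, the monoacylglycerol lipase, had 3 detected probes, and they differed by 0.70, 0.79 and 0.92. Lipn, an epidermal lipase mutated in a human ichthyosis, differed by 0.57, and Lipe, the hormone-sensitive lipase, was at least 1.002-fold lower and not detected on DKO.

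Other neutral lipid acyltransferases had only 2 detected genes, Awat2, which makes wax esters, at -0.24 and Soat1, which makes cholesteryl esters, at -0.10. Genes of the lipid droplet had a median of -0.27 over 10 genes, with 7 lower in DKO. Tmem159, which acts with seipin where droplets form, differed by -0.46 and -0.53 by its 2 probes. Plin3, a droplet coat protein, differed by -0.44 and Cav1, the caveolin of cell-surface caveolae, by -0.42. The droplet list was thus lower by its median while Dgat2, whose product droplets store, was higher.

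Of the transcription regulators of glycerolipid genes, 7 of 12 were detected, with a median of 0.05, which was -0.04 under median scaling. Nr1h2 (LXR beta), a sterol-sensing nuclear receptor, differed by 0.51, with its other probe at 0.56. Its relative Nr1h3 (LXR alpha) was at least 1.24-fold lower and not detected on DKO. Srebf1, a regulator of fatty acid and glycerolipid synthesis, was at least 1.33-fold higher and not detected on CON. These bounds hold only for the background correction and offset used here. With an offset of 50 Srebf1 differed by 0.37 (log2), below its bound of 0.41. Without background correction Lpcat4 differed by -0.15, Pisd by 0.17, Lipe by -0.19, Nr1h3 by -0.20 and Srebf1 by 0.19 on the log2 scale, which is less than the bounds except for Lipe.

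**Figure D4:**
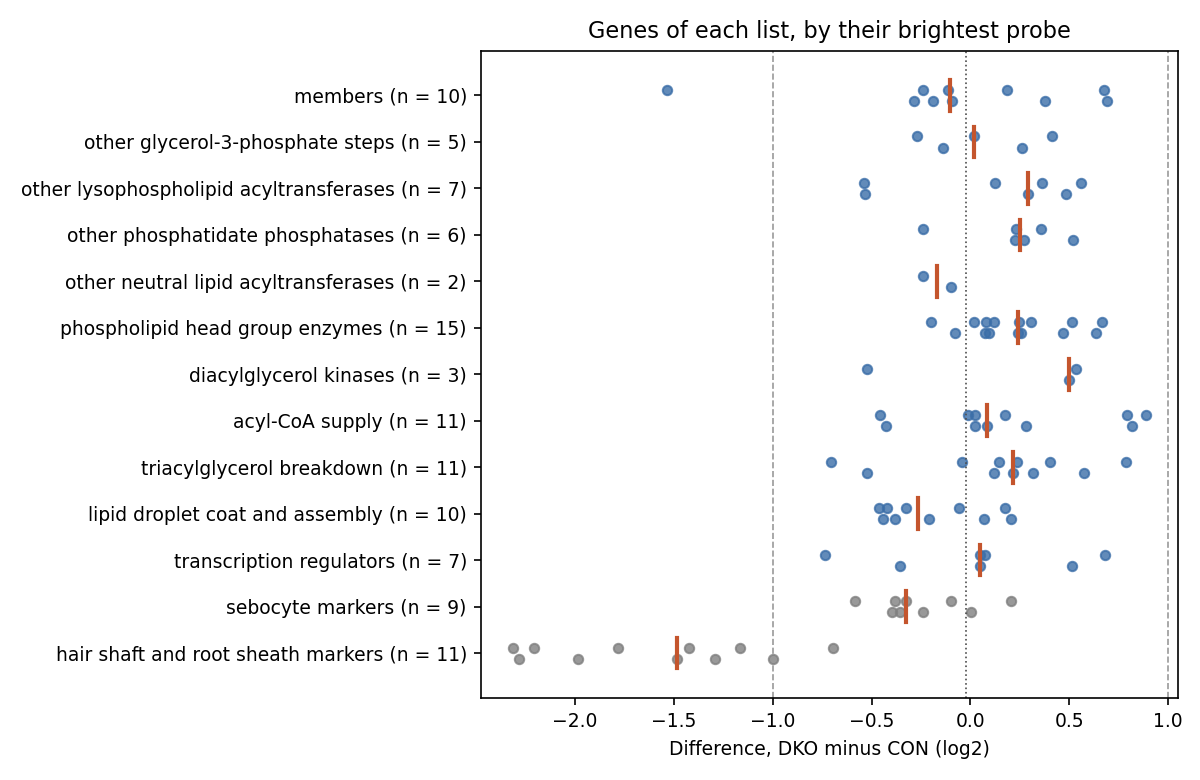
Difference of each detected gene (DKO minus CON, log2, horizontal axis) by list, 1 point per gene by its brightest probe, with the number detected in parentheses. Orange bars are list medians, the dotted line the median of all detected genes and dashed lines 2-fold. Agpat2 is the only point of the glycerolipid and regulator lists beyond 2-fold, and the hair markers lie between -2.31 and -0.70.

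Markers of other structures in the skin also differed between the pools. All 11 detected hair shaft and root sheath markers of 12 on the array were lower in DKO, with a median of -1.49, and 9 of them passed the size rule on the lower side (Krt27, Krt31, Krt33a, Krt34, Krt35, Krt71, Krt73, Krt82 and Krt86). Their summed linear signal was 35041 on CON and 12127 on DKO. In bulk tissue fewer cells of a type and less RNA per cell cannot be told apart. Of 12 sebocyte markers on the array 9 were detected and 7 of these were lower, with a median of -0.32 and a summed signal of 27778 on CON and 20276 on DKO. That list holds Awat2, Cidea, Plin2, Pparg and Soat1, which are also in the lipid lists above. Its other detected markers were Krt79 (-0.58), which had the largest signal in the sum, Scd1 (-0.40), Elovl3 (0.004) and Mc5r (0.20). For adipocytes, whose triacylglycerol synthesis depends on Agpat2, 3 of 11 markers were detected and all 3 were lower, with a median of -0.52, or -0.06 with the dim value of Lipe at its bound. Of these, Lpl and Plin4 were detected on both arrays and differed by -0.52 and -0.06. The adipocyte markers Adipoq, Lep, Plin1, Fabp4, Cidec, Cfd, Retn and Car3 were not detected on either array. Of 9 dermal fibroblast markers 3 were detected, with a median of 0.13. Mgp passed the size rule at -1.23, and Dcn and Fbln1 differed by 0.13 and 0.17. Endothelial markers were detected in 0 of 6 cases and immune markers in 7 of 10, the latter with a median of 0.15. The part of the hair, sebocyte and adipocyte marker differences in the lower Agpat2 signal was not tested.

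In the order of log2 differences, leaving out unnamed gene models, the genes nearest to Agpat2 were Tcof1 (-1.58) and Actbl2 (-1.62) below it and Ly6g6g (-1.52) and Bnc1 (-1.50) above it. Actbl2 was not detected on DKO, so its value depends on background. Likeness here is closeness of 1 difference over 2 arrays and says nothing of shared function.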

How the data were processed

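The authors deposited, per the file headers, raw signal intensity per probe with a detection p-value for CON and for DKO, and a table of normalized intensity. GenomeStudio 2011.1 is named in the submitters' processing notes, and how the second table was normalized is not given in these sources. A header line assigns each array column to CON or DKO.

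Raw signals went through neqc of limma 3.58.1 (R 4.3.3), which subtracts a normexp background estimated from detection p-values, adds an offset of 16, equalizes the quantiles of the arrays and takes log2. Probes were named through a RefSeq gene table of GRCm38.p6, and 321 of 25697 kept the array's name. The probe with the highest mean signal stands for a gene. "At least" folds set a dim signal to the lowest one detected on its array. Of the steps, normalization was tried on simulated arrays made from the CON signal, with changes placed only in probes bright on CON. Genes with low signals on both arrays, such as Gpam, were not covered by it. The number of arrays limits the precision: 10760 probes were detected on CON and 10441 on DKO.

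Named genes are the 10 enzymes, up to 3 of each lipid or regulator list by absolute difference, the 2 neighbours of Agpat2 on each side, Vdr and Casr, and markers past the size rule. Other genes named, such as further markers, Y-linked genes and genes with several probes, were added after their values were seen. Members and lists were chosen with earlier results of these data known. Alternatives covered background, scaling, detection and probe averaging. The probes' own sequences were not used here.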

Additional observations from a re-analysis of the deposited data

How the results depend on the processing

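No paired analysis was possible because each group has 1 array, and no replicate could be left out. Across 9 alternatives, of which 1 (dim values at their bound) was chosen after seeing the data, the 10 genes gave 89 values. Of these, 87 moved by less than the pooled SD between probes and 0 changed sign, though Lpin1 became 0.0 at its bound. Many could not move, since 9 of the 10 genes had 1 probe, which detection rules and probe averaging leave at its main value. A sign could also not change without background correction or with an offset of 50, which keep the order of probes on each array. The authors' deposited table split all detected genes into higher and lower almost as the main setting did, so it may not be a separate check of sign. The 2 that moved further were Agpat2 without background correction (-0.94) and in the authors' deposited table (2.002-fold lower). Without background correction 0 of the 10 genes passed the size rule, and 1 passed under every other alternative. Those on detection, filtering, averaging and dim values leave Agpat2 at its main value. Of 256 alternative values of other named genes 17 moved further and 0 changed sign. These genes were picked for the largest differences of their lists, so they had the most room before a change of sign. Over all 70 other glycerolipid genes detected, 47 were higher in the main setting and 39 under median scaling. Genes at least 2-fold higher and lower numbered 89 and 118 in the main setting. They numbered 23 and 27 without background correction, 24 and 28 in the authors' deposited table, 43 and 58 with an offset of 50, and 57 and 77 with detection required on both arrays. Under median scaling the split was 71 and 149. The median of the other glycerolipid genes was 0.13 in the main setting and 0.023 under median scaling, where the median of all genes was -0.13. It was 0.079 with background kept, 0.099 with all probes let in and 0.088 in the authors' deposited table. Values that keep background have smaller ratios by construction, and the filter changes which genes are counted. The low signals of Gpam, Agpat1, Agpat3, Lpin1 and Lpin2 limit what their probes can show. So does the low DKO signal of Agpat2, 208.4 raw where the lowest detected was 151, for the size of its fold.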

Other observations

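Agreement between probes could be read where a glycerolipid or regulator gene had several probes detected on both arrays, which none of the 10 enzymes had. Of 18 such genes, 15 had all of these probes on one side of 0. Dbi, the acyl-CoA binding protein, had 3 probes between 0.21 and 0.28. Ddhd1, a phospholipase that acts on phosphatidic acid, had probes at 0.35 and 0.41. The signs differed for Chpt1, which makes phosphatidylcholine from diacylglycerol, with probes at -0.65 and 0.07. They also differed for Crls1, the cardiolipin synthase, with probes at -0.04 and 0.12, and for Tamm41, which makes CDP-diacylglycerol in mitochondria, with 3 probes from -0.37 to 0.07.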
